A study of Mus musculus with 6 samples.

Results

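The 10 genes described here encode the cornified envelope, the insoluble protein shell that keratinocytes build under their plasma membrane as they finish differentiating. They were taken by symbol from the 36528 gene models that the files name by gene ID. The list was drawn up by role in the envelope, with earlier results of these data known. By role they are 7 precursors that are cross-linked into the shell (Ivl, Sprr1a, Sprr1b, Sprr2d, Sprr2f, Sprr2h and Sprr3), 2 scaffold proteins (Evpl and Ppl) and 1 cross-linking enzyme (Tgm1). The libraries were made from polyadenylated RNA of primary mouse melanocytes, the pigment cells, with skin as the labelled tissue. Of the 6 libraries, 3 are labelled BAP1 KO (knockout of the deubiquitinase gene Bap1) and 3 are labelled WT (wild type). The labels give no strain, age, Cre driver or allele, and whether the 3 libraries of a group stem from 3 cultures or 1 is not stated. P-values here therefore reflect the spread of these 3 and 3 libraries, which may be technical.

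Assembly of the envelope starts with envoplakin and periplakin, plakin-family proteins that gather under the membrane near desmosomes. Involucrin joins them there, and transglutaminase 1, held at the membrane, links glutamine to lysine side chains of neighbouring proteins. Small proline-rich proteins (SPRRs) are added as short cross-bridges, and loricrin, filaggrin and late cornified envelope proteins follow in the upper epidermis. Keratinocytes are the usual source of these transcripts in skin; pigment cells are not known to build an envelope.

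Reads aligned uniquely to genes numbered 33987690 to 43773769 per library. Bap1 itself was read at 73.6, 77.3 and 72.5 CPM (read counts scaled to library size by TMM factors) in the BAP1 KO-labelled libraries and at 55.7, 55.6 and 55.8 CPM in the WT-labelled ones, so the targeted gene was not lower under the knockout label. The counts are per gene, and a partial deletion can leave them in place. Every direction below therefore rests on the labels. All 13 melanocyte markers were read in every library, with a summed level of 64633 to 65462 CPM in the BAP1 KO-labelled libraries and 6860 to 6914 CPM in the WT-labelled ones. Differences are log2 fold changes, BAP1 KO label minus WT label, from edgeR's quasi-likelihood test, with a call where the p adjusted by Benjamini-Hochberg was under 0.05. In that test 81.5% of 17121 genes were called, 42.1% lower and 39.4% higher, with a median of -0.03.

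The promoters of the envelope genes are shown first because 7 of the genes lie close together on chromosome 3 and were all lower under the BAP1 KO label. RefSeq windows on GRCm38.p6 gave the 250 bases before the start site for 8 of the 10 genes, Evpl and Ppl being the others. Capitals mark matches, on either strand, to 4 words: TATAAA (the TATA box), TGANTCA (the AP-1 word, which reads alike on both strands), CACCC (bound by KLF factors; GGGTG on the other strand) and AACNGGTT (bound by grainyhead factors). The Ivl window is chr3:92573736-92573985, minus strand. The Sprr1a window is chr3:92485882-92486131 and the Sprr1b window chr3:92438780-92439029, both on the minus strand. Each sequence is read towards its gene, with the start site just after the last base.
Ivl: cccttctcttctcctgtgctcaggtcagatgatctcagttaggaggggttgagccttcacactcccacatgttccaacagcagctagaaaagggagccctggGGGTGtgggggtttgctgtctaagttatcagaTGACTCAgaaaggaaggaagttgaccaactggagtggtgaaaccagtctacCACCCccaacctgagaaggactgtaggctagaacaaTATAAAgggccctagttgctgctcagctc
Sprr1a: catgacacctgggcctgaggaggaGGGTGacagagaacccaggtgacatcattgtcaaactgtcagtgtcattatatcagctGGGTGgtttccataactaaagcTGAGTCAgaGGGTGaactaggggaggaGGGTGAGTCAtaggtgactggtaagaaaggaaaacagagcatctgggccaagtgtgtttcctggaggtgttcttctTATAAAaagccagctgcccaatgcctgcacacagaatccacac
Sprr1b: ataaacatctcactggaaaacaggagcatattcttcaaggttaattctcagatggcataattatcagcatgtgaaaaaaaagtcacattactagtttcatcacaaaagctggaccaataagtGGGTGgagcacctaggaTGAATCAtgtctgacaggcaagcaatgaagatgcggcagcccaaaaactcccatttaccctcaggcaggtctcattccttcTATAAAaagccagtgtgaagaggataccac

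The 3 SPRR2 promoters are shown together because they are related sequences that lie in front of genes of the same subfamily. Their windows are chr3:92338890-92339139 for Sprr2d, chr3:92364937-92365186 for Sprr2f and chr3:92385435-92385684 for Sprr2h, all on the plus strand.
Sprr2d: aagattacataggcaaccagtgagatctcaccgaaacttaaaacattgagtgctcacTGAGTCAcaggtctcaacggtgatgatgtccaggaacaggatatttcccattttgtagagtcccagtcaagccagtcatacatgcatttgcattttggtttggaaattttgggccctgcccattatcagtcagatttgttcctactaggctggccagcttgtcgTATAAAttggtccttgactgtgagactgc
Sprr2f: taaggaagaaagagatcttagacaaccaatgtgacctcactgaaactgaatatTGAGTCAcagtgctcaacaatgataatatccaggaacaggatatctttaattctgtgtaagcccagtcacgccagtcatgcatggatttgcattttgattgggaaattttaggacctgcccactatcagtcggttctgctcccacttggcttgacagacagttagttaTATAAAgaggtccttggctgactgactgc
Sprr2h: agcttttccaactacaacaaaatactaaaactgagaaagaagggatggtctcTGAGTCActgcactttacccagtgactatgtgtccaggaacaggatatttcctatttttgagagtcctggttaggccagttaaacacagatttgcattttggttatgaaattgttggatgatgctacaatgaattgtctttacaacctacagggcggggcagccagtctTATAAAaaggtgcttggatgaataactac

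In these windows a gapped global alignment gave identical bases at 74.8% of the 250 positions for Sprr2d and Sprr2f, 69.2% for Sprr2d and Sprr2h and 66.8% for Sprr2f and Sprr2h, where the other pairs of windows gave 56.4% to 65.2%. All 3 spell the AP-1 word as TGAGTCA, beginning 193, 197 and 198 bases before the start site, and all 3 hold TATAAA 29 bases before it. Ivl holds TGACTCA at 116 bases and TATAAA at 29. Sprr1a has TGAGTCA at 146 and at 116 bases, the nearer of which shares bases with a CACCC word, and Sprr1b has TGAATCA at 111.

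The AP-1 word was found in 6 of the 8 promoters (all but Sprr3 and Tgm1), against 6.73% of 32536 RefSeq mouse promoter windows of the same length. TATAAA was found in 7 of 8 (all but Tgm1), against 12.3%. CACCC was found in 5 of 8 (Ivl, Sprr1a, Sprr1b, Sprr3 and Tgm1), against 52.1% of all windows, and AACNGGTT in 0 of 8, against 1.79%. These are matches of letters, not measured binding sites, and the SPRR promoters share sequence, so they are not independent of each other.

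All 10 envelope genes passed the count filter and all 10 were lower in the BAP1 KO-labelled libraries, where 42.1% of all tested genes were called lower. Their median log2 difference was -4.32. All 10 were lower by more than 2 on the log2 scale (14.4% of tested genes were) and 6 by more than 4 (4.25% were). For all 10 each library labelled BAP1 KO lay below each labelled WT, which held for 42.6% of tested genes. Sprr2f and Sprr3 passed the count filter through the WT-labelled libraries alone, so only a lower call was possible for them. Summed over the 10 genes, the level was 62.6 to 70.2 CPM in the BAP1 KO-labelled libraries and 900 to 988 CPM in the WT-labelled ones. In bulk RNA, fewer cells of a type and less RNA per cell cannot be told apart. Over the same libraries the summed level of 11 basal keratinocyte markers was 1883 to 2029 CPM in the BAP1 KO-labelled libraries and 8457 to 8763 CPM in the WT-labelled ones. All 11 were read in both groups. Dst alone made up most of the BAP1 KO sum and went the other way, at 1258 against 389 CPM. The sum thus understates the difference of the other markers in it. The part of these markers in the envelope result was not tested.

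**Figure D1:**
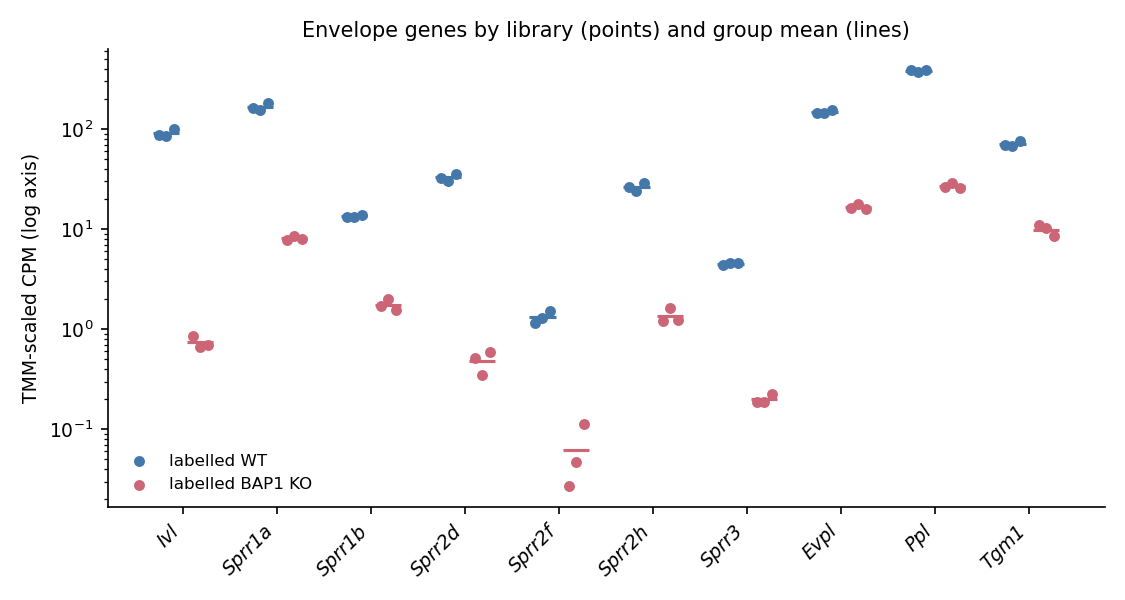
Level of each envelope gene in every library (TMM-scaled CPM, log axis), with the libraries labelled BAP1 KO and WT in separate colours; each point is 1 library and each line a group mean. In all 10 genes the 3 points of one label lie apart from the 3 of the other, with Ivl near 0.739 against 90.5 CPM.

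Ivl, which encodes involucrin, an early glutamine-rich precursor, had the largest difference of the 10. The gene (ID 16447, chromosome 3, 92570899 to 92573790, minus strand, 2 merged exons) was read at 0.863, 0.657 and 0.697 CPM in the BAP1 KO-labelled libraries and at 86.7, 85.7 and 99.1 CPM in the WT-labelled ones. Within each label the values were close, and the groups were far apart. In reads, the BAP1 KO-labelled libraries held 85 in all and the WT-labelled ones 10320. The log2 difference was -6.94 (SE 0.11, edgeR adjusted p = 9.29e-13), a 123-fold lower level.

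The 2 SPRR1 genes encode the cross-bridging proteins best known from stressed and cultured keratinocytes. Sprr1a (ID 20753, chromosome 3, 92483954 to 92485881) was read at 7.82, 8.61 and 8.0 CPM in the BAP1 KO-labelled libraries and 161, 155 and 184 CPM in the WT-labelled ones. Its log2 difference was -4.35 (SE 0.078, edgeR adjusted p = 2.63e-12), or 20.4-fold. Sprr1b (ID 20754, chromosome 3, 92436808 to 92438817), its close relative, stood at 1.70, 1.99 and 1.56 CPM against 13.2, 13.3 and 14.0 CPM; here and below the BAP1 KO-labelled libraries come first. The Sprr1b difference was smaller, at -2.94 (SE 0.097, edgeR adjusted p = 3.28e-10), or 7.67-fold, the smallest among the 7 precursors.

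The SPRR2 genes form the largest SPRR subfamily, a run of similar genes of which Sprr2d, Sprr2f and Sprr2h are 3. Sprr2d (ID 20758, chromosome 3, 92339140 to 92340873) was read at 0.512, 0.352 and 0.586 CPM in the BAP1 KO-labelled libraries and at 32.8, 30.2 and 35.9 CPM in the WT-labelled ones. Its difference of -6.10 (SE 0.13, edgeR adjusted p = 1.20e-11), or 68.8-fold, was second in size to that of Ivl. Sprr2h (ID 20762, chromosome 3, 92385685 to 92387324) stood at 1.21, 1.62 and 1.23 CPM against 26.6, 24.3 and 28.9 CPM. The Sprr2h difference was -4.28 (SE 0.12, edgeR adjusted p = 6.07e-11), or 19.5-fold.

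Sprr2f (ID 20760, chromosome 3, 92365187 to 92366442), which lies between them, had the fewest reads of the 10 genes. It had 1, 2 and 4 reads in the BAP1 KO-labelled libraries and 40, 48 and 63 in the WT-labelled ones, or 0.0618 ± 0.0442 against 1.32 ± 0.192 CPM (SD, n = 3 each). The difference of -4.38 (SE 0.35, edgeR adjusted p = 5.93e-07) is the least precise of the 10, and ran from -5.01 to -4.05 over the alternative settings. Copies of the family share little 50-base sequence with these 3 genes, 4.27% of Sprr2d (with Sprr2i), 0.714% of Sprr2f (with Sprr2e) and 0% of Sprr2h. Only exact matches were counted, so reads misplaced from a copy with a few mismatches were not examined.

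Sprr3, the SPRR of wet-surfaced epithelia such as the oesophagus, was low in all libraries. It stood at 0.189, 0.188 and 0.223 CPM in the BAP1 KO-labelled libraries and at 4.34, 4.57 and 4.56 CPM in the WT-labelled ones (ID 20766, chromosome 3, 92456502 to 92458720). The groups did not overlap, and the difference was -4.48 (SE 0.16, edgeR adjusted p = 6.93e-10), or 22.2-fold.

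Both scaffold genes were abundant under the WT label and remained readable under the BAP1 KO label. Ppl, which encodes periplakin (ID 19041, chromosome 16, 5086291 to 5132481, 22 merged exons), was read at 26.6, 28.9 and 25.7 CPM against 386, 374 and 389 CPM. The difference was -3.82 (SE 0.052, edgeR adjusted p = 4.21e-13), or 14.1-fold. Evpl, which encodes its binding partner envoplakin (ID 14027, chromosome 11, 116220559 to 116238165, 22 merged exons), stood at 16.4, 17.7 and 16.0 CPM against 145, 144 and 155 CPM. Its difference of -3.15 (SE 0.055, edgeR adjusted p = 2.04e-12), or 8.88-fold, was smaller than that of Ppl in size.

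Tgm1, the membrane-bound transglutaminase that seals the envelope, had the smallest difference of the 10. The gene (ID 21816, chromosome 14, 55700009 to 55713921, 17 merged exons) was read at 11, 10.2 and 8.48 CPM in the BAP1 KO-labelled libraries and at 70.1, 67.8 and 75.8 CPM in the WT-labelled ones. The difference was -2.85 (SE 0.084, edgeR adjusted p = 1.31e-10), or 7.20-fold. Of its exon bases 5.76% overlap the gene model Gm49067, and the library kit does not mark strand, so reads from that stretch cannot be assigned to one of them.

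**Figure D2:**
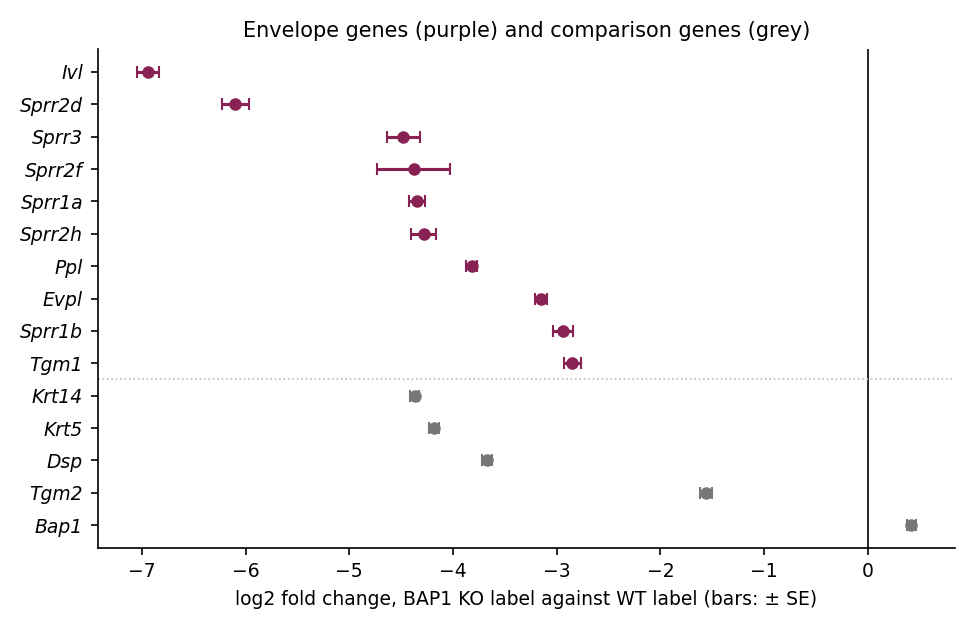
Log2 fold change of each envelope gene, BAP1 KO label minus WT label (x axis), as points with bars of 1 SE from the edgeR fit, above Krt14, Krt5, Dsp, Tgm2 and Bap1 in grey for comparison. The envelope values run from -6.94 for Ivl to -2.85 for Tgm1, and Bap1 lies at 0.42.

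Among the libraries labelled WT, replicate 3 was the highest for 9 of the 10 envelope genes, the exception being Sprr3. Over all tested genes it was the highest of the 3 for 40.4%. Its excess was small beside the difference between labels, as with Ivl at 99.1 CPM against 86.7 and 85.7.

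Levels were compared between genes on the deposited RPKM scale, which divides by gene length. Under the WT label Sprr1a was highest at 195 ± 20.4, followed by Ppl at 56.3, Sprr2d at 44.7, Ivl at 39.9, Sprr2h at 32.2, Evpl at 20.9, Tgm1 at 19.2, Sprr1b at 15.2, Sprr3 at 3.39 and Sprr2f at 2.0 RPKM (means, n = 3). Neighbours in that order had separate ranges except Sprr2d with Ivl and Evpl with Tgm1, whose libraries overlapped. Under the BAP1 KO label Sprr1a and Ppl again led, at 9.71 and 4.07 RPKM. Tgm1 (2.72) and Evpl (2.40) came next with overlapping ranges, then Sprr1b (2.01) and Sprr2h (1.67), also overlapping. Sprr2d (0.669) and Ivl (0.333), which followed Sprr1a and Ppl under the WT label, came after these, and Sprr3 (0.154) and Sprr2f (0.0955) overlapped at the bottom.

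To set the sizes of these differences beside that of a keratinocyte keratin, each gene's reads were divided by the reads of Krt14, the basal layer keratin, in the same library. This ratio does not depend on how libraries are scaled. Krt14 (ID 16664) stood at 96.6, 98.8 and 94.0 CPM in the BAP1 KO-labelled libraries and 1979, 1923 and 2100 CPM in the WT-labelled ones, a difference of -4.37 (SE 0.046, edgeR adjusted p = 1.41e-13), with 13.9% of its 50-base words found in other genes. Ivl stood at 8.93, 6.65 and 7.42 reads per 1000 Krt14 reads in the BAP1 KO-labelled libraries and at 43.8, 44.5 and 47.2 in the WT-labelled ones. Sprr2d stood at 5.30, 3.56 and 6.23 against 16.6, 15.7 and 17.1. For both genes the groups did not overlap, and the log2 ratios differed by -2.57 and -1.75.

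Sprr1a had overlapping groups, at 80.9, 87.1 and 85.2 reads per 1000 Krt14 reads under the BAP1 KO label and 81.6, 80.4 and 87.4 under the WT label (log2 difference 0.02). Sprr2h (0.07), Sprr3 (-0.12) and Sprr2f (-0.28) also had overlapping groups. The other 4 genes had higher ratios under the BAP1 KO label with no overlap. Tgm1 had the largest of these differences (1.52), at 114, 103 and 90.2 reads per 1000 Krt14 reads against 35.4, 35.3 and 36.1. Sprr1b differed by 1.42, Evpl by 1.22 and Ppl by 0.55.

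For the 6 genes without overlap the exact two-sided permutation p was 0.10, the smallest that 3 against 3 libraries can give, and 0.17 after adjustment over the 10 genes. The other 4 had exact p-values of 0.30 to 0.90. The order of the 10 differences is the same for any denominator, but where the line between lower and higher falls depends on the denominator. Against Krt5, the partner keratin of Krt14, 4 genes were lower without overlap (Ivl, Sprr2d, Sprr1a and Sprr3) and the same 4 were higher. Against the summed basal keratinocyte markers all 10 were lower, from -0.73 for Tgm1 to -4.82 for Ivl. That sum holds Dst, a plakin read at 1258 CPM in the BAP1 KO-labelled libraries and 389 CPM in the WT-labelled ones. Without Dst, an alternative chosen after its level was seen, 6 genes were lower without overlap. Sprr2f was lower with overlapping groups (-1.12), and Sprr1b (0.58), Evpl (0.38) and Tgm1 (0.68) were higher. Ivl and Sprr2d had lower ratios without overlap against each of the 4 denominators. Sprr2f and Sprr3 had lower mean ratios against each as well. The Sprr3 groups overlapped against Krt14, and the Sprr2f groups against Krt14, Krt5 and the sum without Dst.

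**Figure D3:**
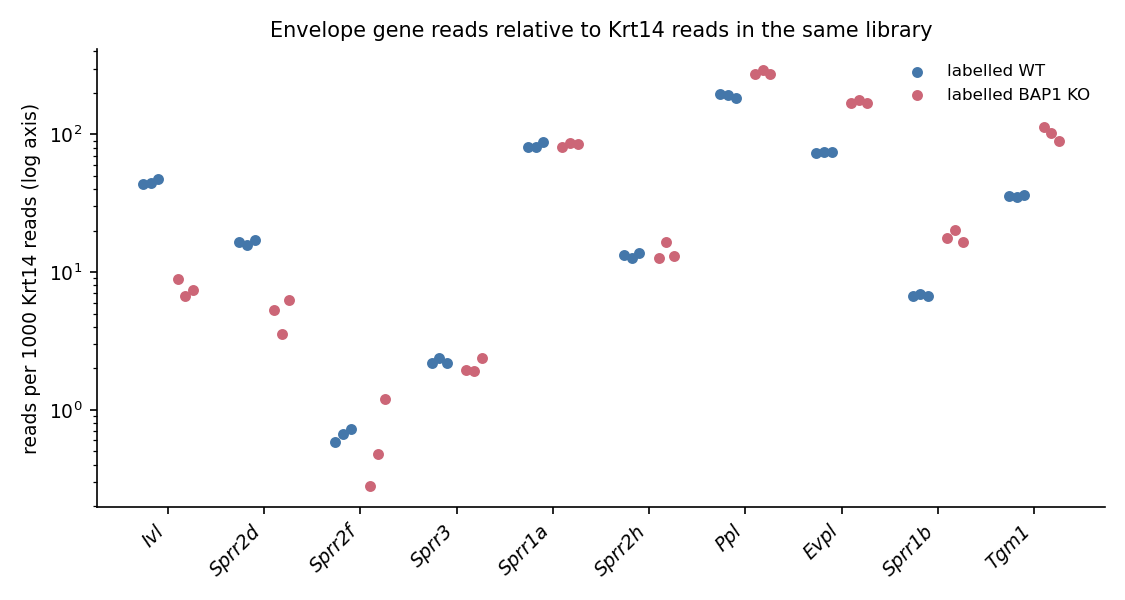
Reads of each envelope gene per 1000 Krt14 reads in every library (log axis), by label; each point is 1 library. Ivl and Sprr2d lie lower under the BAP1 KO label, Sprr1b, Evpl, Ppl and Tgm1 lie higher, and the other 4 overlap.

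The 7 precursor genes lie in 235 kb of chromosome 3 (92339140 to 92573790), inside the epidermal differentiation complex, a cluster that also holds the S100, late cornified envelope and fused S100 genes. Taken from S100a1 to S100a10 (90511034 to 93564645), the complex held 76 gene models, 70 with reads and 43 tested. Of the 43, 42 were lower and 1 higher (median -3.79). Leaving out the 7 precursors, 35 of 36 were lower (median -3.64), where 42.1% of all tested genes were called lower. With at least 5 CPM required in 3 libraries, 22 lower genes of the complex remained in the test. The WT-labelled libraries alone can meet either filter. A gene that passed that way could be called only lower, so these counts are in part set by the filter. Lce3d, with 1 read over the BAP1 KO-labelled libraries and 56 over the WT-labelled ones, is such a gene. The highest under the WT label were the calcium-binding proteins S100a6 (75.9 against 1004 CPM, -3.72), S100a10 (80.9 against 424 CPM, -2.39) and S100a14 (18.3 against 402 CPM, -4.46). The 1 higher gene was S100a1, at the edge of the interval, at 94.0 ± 2.0 against 28.6 ± 1.5 CPM (SD, n = 3 each; 1.71, SE 0.049, edgeR adjusted p = 1.00e-10).

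**Figure D4:**
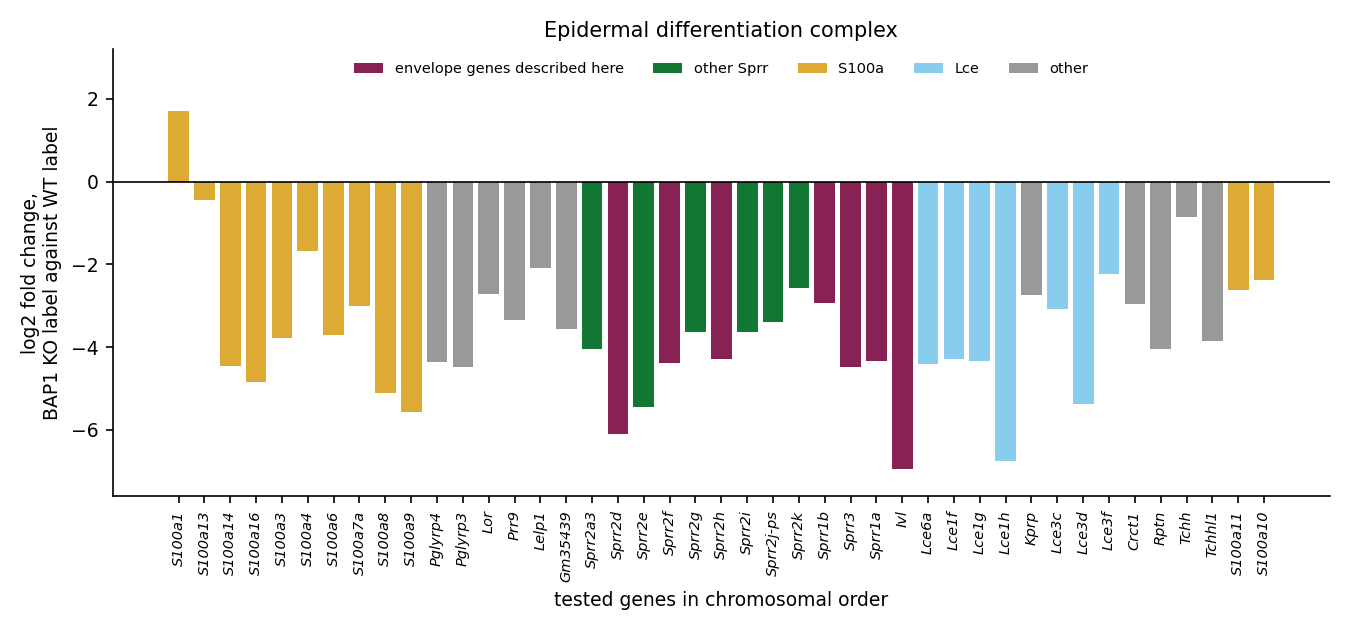
Log2 fold change of the 43 tested genes of the epidermal differentiation complex as bars in order along chromosome 3 (x axis), coloured by family, with the 7 envelope precursors in purple. Apart from S100a1 at 1.71, the bars lie below 0.

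The other SPRR genes also lie in the epidermal differentiation complex and were counted there, so this is not a separate reading. Of 10 in the files, 6 were tested and all 6 were lower (median -3.64), where 42.1% of all tested genes were called lower. Sprr2e (5 reads against 230), Sprr2i (23 against 287) and Sprr2j-ps (13 against 137) passed the count filter through the WT-labelled libraries alone. They could be called only lower. Sprr2e stood at 0.0429 against 2.01 CPM (-5.44), Sprr2g at 0.751 against 9.33 CPM (-3.64) and Sprr2i at 0.194 against 2.51 CPM (-3.64). Sprr2g and Sprr2j-ps are annotated as transcribed pseudogenes. Other genes hold 10.2% of the 50-base words of Sprr2e and 12.5% of those of Sprr2i. Sprr2a3 (-4.04) is uncertain, with 61.1% of its 50-base words found elsewhere in the annotation. Sprr2a1 and Sprr2a2 share 96.3% and 96.5% with other genes and did not pass the count filter.

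Late envelope proteins, which keratinocytes add in the granular and cornified layers and which here include secreted and protease partners, ranged widely in level. Of 36 in the files 19 were tested, and all 19 were lower (median -3.43), where 42.1% of all tested genes were called lower. Those inside the epidermal differentiation complex, such as loricrin and the Lce genes, were also counted there. Some, such as Lce3d, passed the count filter through the WT-labelled libraries alone and could be called only lower. Dermokine (Dmkn) stood at 14.7 against 121 CPM and suprabasin (Sbsn) at 11.4 against 61.4 CPM. Loricrin (Lor), the main protein of the mature epidermal envelope, stood at 0.610 ± 0.0957 against 4.08 ± 0.519 CPM (SD, n = 3 each), and filaggrin (Flg) had 1 read over the BAP1 KO-labelled libraries and 5 over the WT-labelled ones. Lce1h (0.123 against 13.4 CPM, -6.76) and Lce1g (0.676 against 13.8 CPM, -4.35) had the largest differences among genes of at least 2 CPM in the higher group, with 19.9% and 17.8% of their 50-base words found in other genes. The cornification protease Casp14 was lower by -3.80 and cornifelin (Cnfn) by -3.43.

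Of 8 other transglutaminases, 3 passed the count filter, 2 of them lower and 1 higher (median -0.68). Over all tested genes 42.1% were called lower and 39.4% higher. Tgm2, the widely expressed tissue transglutaminase, stood at 10.6 against 31.5 CPM (-1.56), and F13a1, the clotting factor XIII A chain, at 3.73 against 5.97 CPM (-0.68). Tgm4, known as the prostate transglutaminase, was higher, at 11.9 against 9.11 CPM (0.39, edgeR adjusted p = 8.17e-04). The epidermal enzymes Tgm3 and Tgm5 had 12 and 4 reads over the BAP1 KO-labelled libraries and 21 and 41 over the WT-labelled ones, too few to be tested. Whether Tgm1 differs from Tgm2 in its change was not tested.

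Evpl and Ppl join the envelope to desmosomes and keratin filaments. Of 19 other plakins, desmosome proteins and filament partners, 15 were lower and 4 higher (median -3.67). Among all tested genes 42.1% were called lower and 39.4% higher. The desmosome proteins Perp (30.6 against 913 CPM, -4.90) and Pkp1 (44.8 against 952 CPM, -4.41) and the keratins Krt18 (45 against 1158 CPM, -4.68) and Krt8 (22.3 against 564 CPM, -4.66) had the largest differences. Desmoplakin (Dsp), the plakin that anchors keratin at desmosomes, fell from 1069 to 84.0 CPM. The 4 higher genes were the plakins Dst (1.69) and Macf1 (0.55), the plakophilin Pkp4 (1.88) and the filament gene Vim (0.75), none of which is particular to epithelia. Within the plakin family the genes therefore went both ways, with Evpl, Ppl and Dsp lower and Dst and Macf1 higher.

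Enzymes that make the lipids bound to the envelope, and proteases and inhibitors of cornification, were lower as well. Their list also holds Anxa1, S100a10 and S100a11, which are none of these. S100a10 and S100a11 were also counted in the epidermal differentiation complex. Of 25 tested, 24 were lower, 0 higher and 1 (Ugcg, 0.08, edgeR adjusted p = 0.388) not called, with a median of -2.63. In the whole test 42.1% of genes were called lower. Alox12b, with 7 reads against 81, passed the count filter through the WT-labelled libraries alone and could be called only lower. The protease matriptase (St14) fell from 464 to 17.2 CPM (-4.75). The ceramide synthase Cers3 fell from 59.2 to 2.77 CPM (-4.41), the serine palmitoyltransferase subunit Sptlc3 from 5.70 to 0.219 CPM (-4.64) and the protease inhibitor Serpinb2 from 110 to 6.39 CPM (-4.10).

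Transcription factors and signalling genes known to act on envelope genes moved in both directions. Of 35 tested, 27 were lower, 6 higher and 2 not called (Maf and Nfe2l2), with a median of -2.18. The epithelial factors Ehf (3.03 against 99.5 CPM, -5.04), Grhl3 (2.54 against 51.6 CPM, -4.33) and Elf3 (2.35 against 46.1 CPM, -4.29) were among the lower genes. All 7 AP-1 subunit genes of the list were called, where 81.5% of all tested genes were called and 42.1% called lower. The 6 lower ones were Fosl1 (-2.36), Junb (-2.32), Fosb (-1.55), Fosl2 (-1.35), Jund (-0.79) and Jun (-0.75). Their part in the envelope result was not tested. The 6 higher genes were the AP-1 subunit Fos (0.85, 37.7 against 20.9 CPM), Arnt (0.81), Ikbkb (0.61), Notch1 (0.48), Chuk (0.21) and Ets1 (0.12). Ets1 lost the call in 3 of 16 alternatives and Chuk in 7 of 16, among them scaling by library totals (edgeR adjusted p = 0.185 and 0.11; over the alternatives 4.97e-04 to 1 for Ets1 and 3.71e-04 to 1 for Chuk).

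Markers of the cells that could carry these transcripts were counted beside them. Of 11 basal keratinocyte markers 10 were lower and 1 (Dst) higher (median -4.08). Beside this list and those that follow, 42.1% of all tested genes were called lower and 39.4% higher. Of 11 suprabasal markers, the layer in which the envelope is built, 6 were tested and 6 were lower (median -2.03). Their summed level was 32.9 to 34.4 CPM in the BAP1 KO-labelled libraries and 190 to 209 CPM in the WT-labelled ones. Dmkn (14.7 against 121 CPM) and Sbsn (11.4 against 61.4 CPM) made up most of both sums. Both, and Krtdap, were also counted among the late envelope proteins, so this list is not a separate reading. Of the defining suprabasal keratins, Krt1 had 1 read over the BAP1 KO-labelled libraries and 15 over the WT-labelled ones, Krt2 had 0 and 5, and Krt10 stood at 1.91 against 2.94 CPM (-0.63, edgeR adjusted p = 0.00196). Stress and mucosal keratins, 6 of 8 tested, were lower in 6 of 6 (median -3.87), with a sum of 132 to 137 against 2402 to 2573 CPM. Krt4, with 1 read against 63, and Krt78, with 26 against 91, passed the count filter through the WT-labelled libraries alone. Krtdap in the suprabasal list, with 4 reads against 89, did too. Each could be called only lower.

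Simple epithelium markers were lower in 8 of 9 (median -4.68), led by Epcam (-5.55), Krt7 (-5.32), Krt19 (-4.83) and Cldn7 (-4.81), and Muc1 was higher (0.88). Their sum was 337 to 350 CPM against 8453 to 8847 CPM. Fibroblast markers were lower in 10 of 12 (median -2.96), at 103 to 110 against 1032 to 1060 CPM summed. Lum, with 10 reads against 61, passed the count filter through the WT-labelled libraries alone and could be called only lower. Of 9 immune markers 7 were tested, 3 lower and 4 higher (median 0.84; 228 to 236 against 66.1 to 72.9 CPM). All 13 melanocyte markers were higher (median 2.88), where 39.4% of all tested genes were called higher and 42.1% lower. The part of any of these lists in the envelope result was not tested.

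The genes whose profiles over the 6 libraries were nearest to the mean profile of the envelope genes, by Euclidean distance of centred log2 CPM among 10795 candidates, were Tent5b (0.10), Krt6a (0.10), Hopx (0.12), Htr1d (0.12) and Ctsh (0.13). Tent5b stood at 4.95 against 82.7 CPM, Hopx, a homeodomain-only protein, at 1.74 against 31.3 CPM and the cathepsin Ctsh at 13.2 against 239 CPM. Krt6a, a stress keratin, stood at 64.8 against 1101 CPM, with 57.2% of its 50-base words found in other genes.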

How the data were processed

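PolyA RNA of 6 libraries was prepared with a TruSeq v2 kit and read as single ends, per the labels' protocols; that kit does not mark strand. Per the submitters' processing notes GSNAP and GRCm38 were used; counting tool and annotation were not given in the sources used here. The authors deposited, per the file headers, a count of uniquely aligned reads per gene and an RPKM value normalized by a size factor. Counts were used for every test and RPKM values only to order genes by level.

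Gene IDs were matched to RefSeq's GRCm38.p6 table (31049 of 36528, 85.0%) and to GENCODE M21. Genes passing filterByExpr (minimum count 10, minimum total 15) were scaled by TMM (0.975 to 1.03) and tested with edgeR 4.0.16 (glmQLFTest, no covariate) in R 4.3.3. The count filter can be met by the libraries of 1 label alone. Such genes can be called in 1 direction only, which bears on every count of lower genes here. Adjustment ran over all 17121 genes tested. CPM are means ± SD of 3 libraries. Shared sequence is the share of a gene's 50-base exon words found in another gene. The profile distance used log2(CPM + 0.1) and candidates of at least 5 CPM under the WT label. Scripts were tested on simulated counts.

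The members, lists and tests were chosen with earlier results of these data known. Named were Bap1, all 10 envelope genes, Krt14, Krt5, the 5 nearest profiles, 3 neighbours on chromosome 3, up to 4 called genes per list by size of change with at least 2 CPM, and genes going against their list. Lor, Flg, Dsp, the lower AP-1 subunits, Tgm3, Tgm5, Krt1, Krt2, Krt10, Sprr2a1, Sprr2a2 and the genes not called were named outside that rule, after their values were seen. So were Lce3d, Krtdap, Anxa1, S100a11, Sprr2j-ps, Krt4, Krt78, Alox12b and Lum. Alternatives were DESeq2 1.42.0 and its size factors, library totals, upper-quartile factors, no filter, at least 5 CPM in 3 libraries, limma-voom (limma 3.58.1), the robust option, a call at 0.01, glmTreat with a threshold of 1 on the log2 scale, other denominators for the ratios, and leaving out each library. A chi-square test of the counts separated the libraries of a group in each pair (2.01 to 17.4 per degree of freedom), so no file repeats another. Preparations of 1 culture could differ as much, and this does not show separate cultures.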

Additional observations from a re-analysis of the deposited data

How the results depend on the processing

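The 10 envelope genes kept their direction and their call in 158 of 158 alternative fits that could test them. At least 5 CPM in 3 libraries removed Sprr2f and Sprr3, leaving 8 envelope genes, all lower, and left 22 lower genes of the epidermal differentiation complex in place of 42. Against a log2 difference of 1, glmTreat called 3417 lower and 1818 higher genes over the whole table, in place of 7207 and 6742, and 17 higher genes in the other lists, in place of 31. Of 75 other named genes, 1170 of 1195 alternatives kept the call, 25 lost it and 0 turned. The number of envelope genes lower per keratin read without overlap was 2 against Krt14, 4 against Krt5, 10 against the summed basal markers, and 6 against that sum without Dst, which was added after the data were examined; leaving out 1 library gave 2 to 4, with 4 (Sprr2f and Sprr3 added) without BAP1 KO replicate 3. Of the ratios whose groups stood apart against Krt14, Sprr1b (-0.83), Evpl (-1.03), Ppl (-1.70) and Tgm1 (-0.73) turned against the summed basal markers, and Ppl (-0.29) against that sum without Dst. Sprr1a and Sprr2h, near 0 and overlapping against Krt14, became negative against Krt5 (-0.17 and -0.13), the basal sum (-2.22 and -2.18) and the sum without Dst (-0.82 and -0.78), and Sprr2h (-0.05) without BAP1 KO replicate 2. Sprr2f, at -0.28 against Krt14, became positive (0.20) without BAP1 KO replicate 1 and stood at -0.85 without BAP1 KO replicate 3. Fewer genes tested account for the lower counts under the 5 CPM filter; for the ratios the cause was not tested. No paired analysis was possible because the labels give no replicate numbers and the numbers used here follow submission order. Depth limits Sprr2f most, with 7 reads over the BAP1 KO-labelled libraries.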
